A study of Rattus norvegicus with 3 samples.

Results

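Collagens and the enzymes that build them into fibers were followed in RNA released from rat spinal cord 24 h after a contusion. The members are the 34 entries, of 12771 in the whole table, whose symbols name a collagen chain, a prolyl 4-hydroxylase subunit, a lysyl hydroxylase, a lysyl oxidase, the collagen chaperone SERPINH1 or a procollagen C-proteinase enhancer. They comprise 20 collagen chains and 14 enzymes and helper proteins. The rule reads the symbols alone, and it was set with earlier results of these data known.

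Female Sprague Dawley rats, 3 months old, underwent laminectomy at T9, which was all that No-SCI animals received, whereas SCI animals were also contused with 250 kdyne. About 2 mm of cord just rostral to the lesion was excised at T8. The tissue of both groups was digested with a cold active protease, the cells were pelleted, and total RNA left in the supernatant was sequenced after removal of ribosomal RNA. Sample labels exist for 2 libraries without and 1 with contusion, although 2 animals per condition are stated in the methods. The authors' table gives 1 value per gene and condition in FPKM, a fragment count corrected for transcript length and sequencing depth, with no value for a single library. No SD, n or test could therefore be given for any difference below, and the number of reads behind each value is unknown, although the methods state 50 M reads per sample ahead of downsampling. A gene is counted as higher or lower after SCI where its 2 values differ at least 2-fold, a log2 ratio of at least 1 in size, and such a count describes these values without a replicate check.

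Collagens are secreted proteins whose chains wind around each other into a stiff triple helix. Fibrillar collagens form the cables of connective tissue, type IV collagens form the sheet of basement membranes, and the remaining types link, decorate or anchor these structures. Inside the cell, prolyl and lysyl hydroxylases modify the chains and SERPINH1 (HSP47) guards the folded helix, and outside it the propeptides are cut off and lysyl oxidases crosslink the fibers. In healthy spinal cord, collagen is largely restricted to the meninges and the walls of blood vessels, and fibroblasts deposit it in scar tissue after injury.

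The collagen group was higher after SCI in most of its members. Of the 34 members 15 were at least 2-fold higher after SCI and 1 was at least 2-fold lower, and the other 18 differed by less. That is 44.1% of the members, whereas 7.96% of all entries were at least 2-fold higher and 12.1% at least 2-fold lower. Counting differences of any size, 26 members were higher and 8 were lower, and 43.7% of all entries were higher. The median log2 ratio of the members was 0.80, beside −0.12 for all entries. Most members lie at low levels, so the same count was taken below a mean of 20 FPKM. There 14 of 31 members were at least 2-fold higher (45.2%), and of the 6913 entries at such levels 9.55% were.

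**Figure D1:**
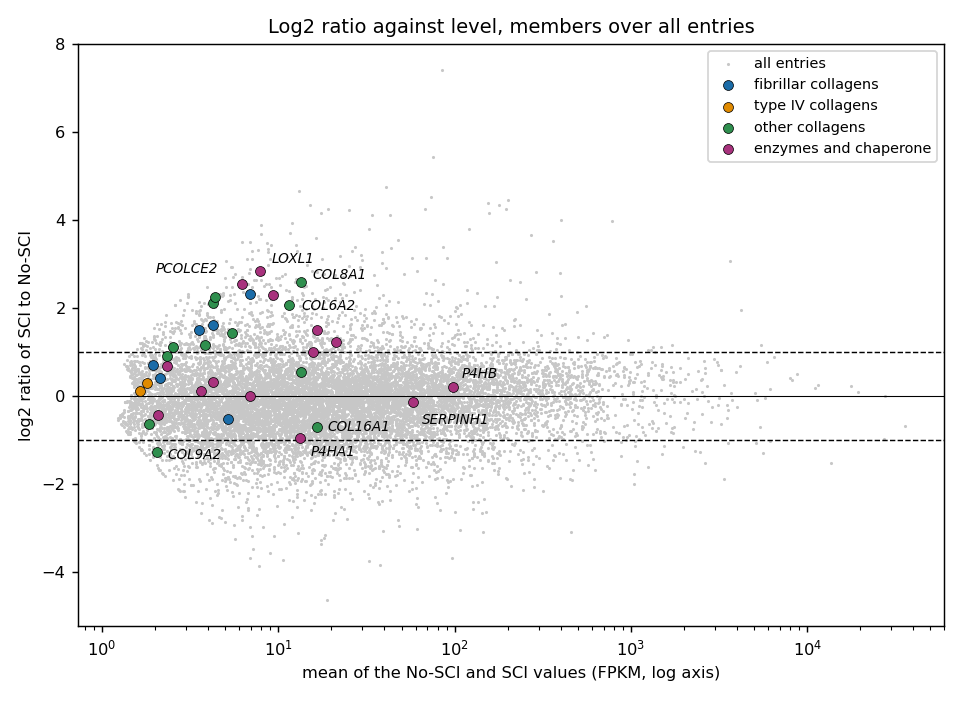
Log2 ratio of SCI to No-SCI for all 12771 entries (gray points) and the 34 members (colored by class) against the mean of both values in FPKM on a log axis, with dashed lines at a 2-fold difference. The members sit mostly at the low end of the level axis, 15 of them above the upper dashed line and COL9A2 alone below the lower one.

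Collagen RNA was scarce in this preparation. Of the 20 collagen chains, 18 had a No-SCI value under 10 FPKM and 15 a value under 3 FPKM, while the median of all entries was 17.2 FPKM. All 34 members together held 0.0241% of the summed FPKM of the table in No-SCI and 0.0367% after SCI. The collagen chains alone summed to 75.6 FPKM in No-SCI against 143 after SCI, a 1.89-fold difference. No value in the table lies below 1, so a constant or a minimum of 1 may have been applied, and which of these is not known. An added constant would understate the ratio of a gene near 1. A minimum applied to these values would leave the member ratios as they are, since no member is listed at 1. Ratios after 1 was subtracted from every value are given below for the members it touches most. They apply only if a constant of 1 was added.

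For another 25 collagen chains the table has no entry under the symbol. They include COL2A1, COL11A1, COL4A2, COL12A1 and COL14A1. LOXL4 and LEPREL1 (P3H2, a prolyl 3-hydroxylase) were not listed either.

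**Figure D2:**
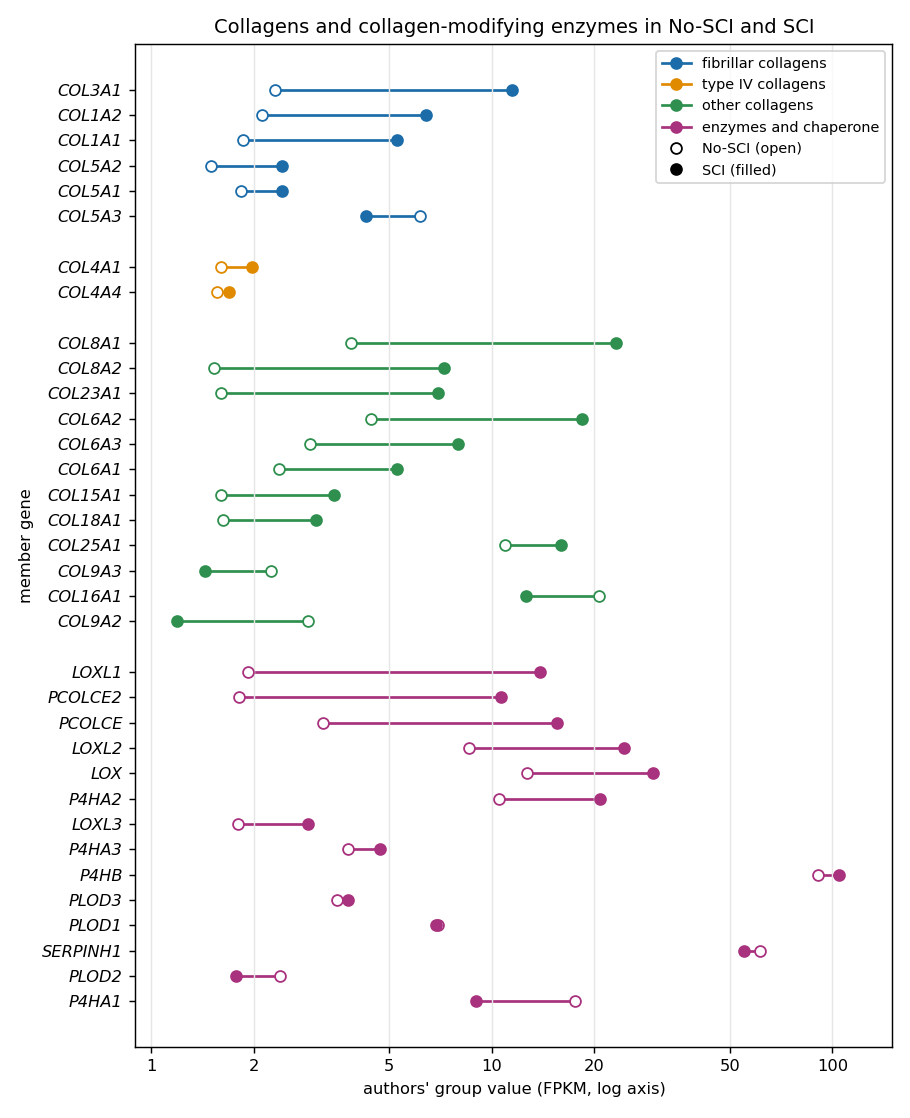
Authors' FPKM value of each member in No-SCI (open circle) and SCI (filled circle) on a log axis, by class and in the order of the ratio. The filled circle lies to the right in 26 members, the type VIII and type VI chains and LOXL1 span long distances, and P4HB, SERPINH1 and PLOD1 hardly move.

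Promoters of members with large and with small differences are shown, because genes that move together invite a look at the sequence in front of them. RefSeq promoter windows of the GRCr8 assembly were found for 27 of the 34 members, by symbol, and the 250 bases before the transcript start were searched on both strands for the GC box (letters GGGCGG), the box named for its letters CCAAT, and the TATA box (letters TATAAA). The sequences belong to the 2 collagens and the 2 enzymes with the largest ratios, and to the most abundant member, P4HB, among the 18 members whose window adjoins the outer end of the gene. For COL1A2 the 110 bases that hold its matches are given. Matches are in capitals, and each sequence runs 5′ to 3′ on the strand of its gene.
COL23A1, chr10:36050077-36050326, plus strand: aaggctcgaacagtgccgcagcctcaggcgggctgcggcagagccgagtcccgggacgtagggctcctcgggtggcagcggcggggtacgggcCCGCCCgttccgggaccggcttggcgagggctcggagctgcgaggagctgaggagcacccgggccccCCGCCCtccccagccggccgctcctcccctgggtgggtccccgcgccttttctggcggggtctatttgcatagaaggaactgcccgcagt
COL1A2, chr4:33518307-33518416, plus strand: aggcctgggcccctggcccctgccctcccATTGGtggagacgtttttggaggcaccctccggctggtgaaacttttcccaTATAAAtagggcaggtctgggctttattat
LOXL1, chr8:67612225-67612474, minus strand: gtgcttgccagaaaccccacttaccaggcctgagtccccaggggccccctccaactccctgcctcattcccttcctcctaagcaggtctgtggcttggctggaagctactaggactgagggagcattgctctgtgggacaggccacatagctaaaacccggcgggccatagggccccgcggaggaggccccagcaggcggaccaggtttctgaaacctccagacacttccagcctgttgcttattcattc
PCOLCE2, chr8:105072836-105073085, plus strand: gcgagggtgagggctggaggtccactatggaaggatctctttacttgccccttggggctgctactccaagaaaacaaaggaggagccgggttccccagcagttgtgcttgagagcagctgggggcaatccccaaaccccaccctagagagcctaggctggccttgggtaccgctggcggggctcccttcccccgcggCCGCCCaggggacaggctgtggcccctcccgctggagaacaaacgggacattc
P4HB, chr10:106346912-106347161, minus strand: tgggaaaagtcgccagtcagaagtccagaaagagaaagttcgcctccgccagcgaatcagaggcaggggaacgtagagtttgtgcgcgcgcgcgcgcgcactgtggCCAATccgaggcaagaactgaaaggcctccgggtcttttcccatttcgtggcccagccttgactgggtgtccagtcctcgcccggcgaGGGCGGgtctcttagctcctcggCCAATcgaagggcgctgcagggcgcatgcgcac

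COL1A2, a chain of type I collagen, was the only member with TATAAA in the window, and it also had an inverted CCAAT box, ATTGG. COL23A1 held 2 GC boxes and PCOLCE2 1, both in the inverted form CCGCCC. LOXL1, the member with the largest ratio, held none of these letters in the window. P4HB, with nearly the same level in both groups, held 1 GC box and 2 CCAAT boxes. A GC box was present in 17 of the 27 member windows and in 30.5% of the 33469 windows of the reference. Among members at least 2-fold higher it was present in 5 of 10 windows and among the others in 12 of 17. A CCAAT box was present in 4 of the 27 member windows, beside 34.0% of all windows, and TATAAA in 12.9% of all windows. The 33469 reference windows outnumber the 12771 entries of the table, so these shares may not be those of the listed genes. These matches are descriptions of letters and say nothing of a factor bound there.

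The fibrillar collagens types I and III were higher after SCI, and type V chains differed by less than 2-fold as deposited, although COL5A2 passed that line with 1 subtracted. COL3A1 is the chain of type III collagen, found in extensible tissues and early scar. It had 2.32 FPKM in No-SCI against 11.5 after SCI, a 4.96-fold difference (log2 ratio 2.31). The paper lists COL3A1 among its up-regulated putative circular RNAs, and 1 value per gene does not separate linear from circular forms. COL1A2 went from 2.12 to 6.43 FPKM, 3.04-fold, and its partner COL1A1 from 1.87 to 5.25 FPKM, 2.81-fold. The ratios of both type I chains were close to each other. All of these started near the lowest value of the table. With 1 subtracted from every value the difference was 7.97-fold for COL3A1, 4.86-fold for COL1A2 and 4.90-fold for COL1A1.

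Type I collagen is assembled from COL1A1 and COL1A2 chains, with COL1A1 in excess. Per length, COL1A1 RNA stood at 0.882 of COL1A2 in No-SCI and 0.817 after SCI, so it was not in excess of COL1A2 in either group. With 1 subtracted these ratios were 0.777 and 0.783. How many transcripts were merged into a symbol is not given in the sources used here, and ratios between genes depend on it. COL3A1 stood at 1.24 times COL1A1 in No-SCI and 2.19 times after SCI.

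Type V collagen, which sits in the core of type I fibrils and limits their width, differed by less than 2-fold in its 3 chains as deposited. COL5A2 had 1.496 FPKM in No-SCI against 2.42 after SCI (log2 ratio 0.69), which became 2.86-fold with 1 subtracted. COL5A1 had 1.84 and 2.42 FPKM (log2 ratio 0.40). COL5A3 was the only fibrillar chain that was lower after SCI, at 6.15 and 4.27 FPKM (log2 ratio −0.53). It was also the most abundant of the fibrillar chains in No-SCI, and COL3A1 had that place after SCI. Over the 6 fibrillar chains 3 were at least 2-fold higher, none was lower by that much, and the median log2 ratio was 1.09.

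The 2 basement membrane collagens listed differed by less than 2-fold, at values near the lowest of the table. COL4A1, a chain of the type IV network found under every endothelium, had 1.60 FPKM in No-SCI against 1.97 after SCI, a log2 ratio of 0.30. COL4A4, a chain of a more specialized type IV network best known from kidney, had 1.57 and 1.70 FPKM, a log2 ratio of 0.12. Both values of both genes lie within 1 FPKM of the lowest value in the table, where a difference may be understated. With 1 subtracted the difference was 1.61-fold for COL4A1 and 1.23-fold for COL4A4. COL4A2, the partner of COL4A1, has no entry, so their balance could not be described.

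COL15A1 and COL18A1, which are not type IV chains but lie at the edge of basement membranes, were further apart between the groups. COL15A1 had 1.61 FPKM in No-SCI against 3.46 after SCI, 2.15-fold, which was 4.03-fold with 1 subtracted. COL18A1, the source of the fragment endostatin, had 1.63 and 3.05 FPKM, 1.87-fold, and fell short of the 2-fold line. With 1 subtracted the difference of COL18A1 was 3.26-fold.

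Type VIII collagen, a short chain network collagen made by vascular and corneal cells, was higher in both of its chains. COL8A1 had 3.86 FPKM in No-SCI against 23.1 after SCI, 5.97-fold, the largest ratio of the collagen chains as deposited, and was the most abundant collagen chain after SCI. COL8A2 had 1.53 and 7.26 FPKM, 4.74-fold. COL8A1 ranked 103 among all entries by its log2 ratio. With 1 subtracted the differences were 7.71-fold for COL8A1 and 11.8-fold for COL8A2. COL8A1 RNA was 2.52 times that of COL8A2 per length in No-SCI and 3.18 times after SCI.

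Type VI collagen forms beaded filaments around cells and links them to the fibrillar matrix. Each of the 3 chains with an entry was at least 2-fold higher after SCI, and COL6A4, COL6A5 and COL6A6 have no entry. COL6A2 had 4.42 FPKM in No-SCI against 18.5 after SCI, 4.18-fold. COL6A3 had 2.93 and 7.94 FPKM, 2.71-fold. COL6A1 had 2.38 and 5.28 FPKM, 2.22-fold. The chains combine in equal parts in the protein, whereas COL6A2 RNA was 1.86 times that of COL6A1 per length in No-SCI and 3.50 times after SCI.

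Among the collagens that span the plasma membrane, COL23A1 had 1.60 FPKM in No-SCI against 6.95 after SCI, 4.34-fold, or 9.88-fold with 1 subtracted. COL25A1, a neuronal collagen first isolated from amyloid plaques, had 10.96 and 15.97 FPKM, a log2 ratio of 0.54. It was the second most abundant collagen chain in No-SCI, after COL16A1, and did not reach the 2-fold line.

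The fibril associated collagens (FACIT), which coat fibrils without forming them, were lower after SCI in each of the 3 chains listed. COL9A2, a chain of type IX collagen best known from cartilage, had 2.88 FPKM in No-SCI against 1.19 after SCI, 2.41-fold lower, the only member lower by at least 2-fold. Its partner COL9A3 had 2.26 and 1.44 FPKM, a log2 ratio of −0.65. COL16A1 had 20.6 and 12.6 FPKM, a log2 ratio of −0.71, and was the most abundant collagen chain in No-SCI. The SCI value of COL9A2 lies closest to 1 of all member values, and with 1 subtracted COL9A2 was 9.68-fold and COL9A3 2.85-fold lower.

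Outside the fibrillar and type IV classes, 7 of the 12 chains listed were thus at least 2-fold higher and 1 was at least 2-fold lower, with a median log2 ratio of 1.13.

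Of the 6 enzymes and helpers that act on collagen outside the cell, the lysyl oxidases and the proteinase enhancers, 5 were at least 2-fold higher after SCI, and none of the 8 that act inside the cell reached 2-fold. The difference between these groups was not tested, and P4HA2, at 1.98-fold, passed the line under each of the 3 scalings tried. Inside the cell, P3H1, P3H3 and FKBP10 of the pathway list below were also at least 2-fold higher. Of the lysyl oxidases, the copper enzymes that start the crosslinks between collagen molecules and in elastin, 3 of the 4 listed were at least 2-fold higher. LOXL1 had 1.93 FPKM in No-SCI against 13.9 after SCI, 7.19-fold (log2 ratio 2.85), the largest ratio of any member, and 13.8-fold with 1 subtracted. LOXL2 had 8.59 and 24.4 FPKM, 2.84-fold, and LOX had 12.7 and 29.8 FPKM, 2.34-fold. LOX was the most abundant lysyl oxidase in both groups, at 6.59 times LOXL1 per length in No-SCI and 2.15 times after SCI. LOXL3 had 1.80 and 2.90 FPKM, a log2 ratio of 0.69, and was 2.37-fold higher with 1 subtracted.

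The enhancers of procollagen C-proteinase, which speed the removal of the C-terminal propeptide by BMP1 and related proteases, were both higher. PCOLCE had 3.20 FPKM in No-SCI against 15.5 after SCI, 4.86-fold. PCOLCE2 had 1.82 and 10.6 FPKM, 5.85-fold, or 11.8-fold with 1 subtracted.

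The subunits of prolyl 4-hydroxylase, whose product hydroxyproline keeps the helix stable at body temperature, went in different directions. P4HA1, a catalytic subunit, had 17.5 FPKM in No-SCI against 9.01 after SCI, 1.94-fold lower (log2 ratio −0.96). P4HA2, an alternative catalytic subunit, had 10.5 and 20.8 FPKM, 1.98-fold higher (log2 ratio 0.99). Both missed the 2-fold line narrowly in opposite directions, and with 1 subtracted both passed it, at 2.06-fold lower and 2.09-fold higher. P4HA1 RNA was 1.67 times that of P4HA2 per length in No-SCI and 0.433 times after SCI, so the order of these subunits was opposite in the 2 groups. P4HA3 had 3.79 and 4.70 FPKM, a log2 ratio of 0.31. P4HB, the subunit shared by all forms of the enzyme, which also works as a protein disulfide isomerase, had 90.6 and 104 FPKM, a log2 ratio of 0.20, and was the most abundant member in both groups.

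The lysyl hydroxylases, which prepare the lysines used for crosslinks and sugar attachment, showed little difference. PLOD1 had 6.94 FPKM in No-SCI against 6.88 after SCI, and PLOD3 had 3.51 and 3.78 FPKM. PLOD2, which makes the lysines of the telopeptides ready for the crosslinks typical of scar and bone, had 2.40 and 1.77 FPKM, a log2 ratio of −0.44. SERPINH1 had 61.2 and 55.1 FPKM, a log2 ratio of −0.15, and was the second most abundant member in both groups. The sign of PLOD1, with a log2 ratio of −0.01, turned to 0.10 when the median of all entries was centered at 0.

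Of the 14 enzymes and helpers 5 were at least 2-fold higher and none was lower by that much, with a median log2 ratio of 0.50. The members nearest to the 2-fold line were P4HA2, P4HA1 and COL18A1 just under it and COL15A1, COL6A1 and LOX just over it.

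Other genes of the collagen pathway were set beside the members. They come from a list of 73 names chosen with earlier results of these data known. Of the 43 listed in the table, 16 were at least 2-fold higher after SCI (37.2%) and 2 at least 2-fold lower. Of all entries, 7.96% were at least 2-fold higher and 12.1% at least 2-fold lower. The median log2 ratio of the 43 genes was 0.68. Among genes of folding and modification, P3H1, a prolyl 3-hydroxylase, had 1.55 FPKM in No-SCI against 5.59 after SCI, 3.61-fold. P3H3 had 6.71 and 21.4 FPKM, 3.19-fold, and FKBP10, a foldase of the endoplasmic reticulum, had 9.53 and 20.7 FPKM, 2.17-fold. PPIB, a prolyl isomerase, had 58.4 and 91.9 FPKM, a log2 ratio of 0.65. Of the 9 genes listed for this step 3 were at least 2-fold higher.

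Of the 4 genes listed for export from the endoplasmic reticulum, CREB3L1, a transcription factor that drives the export machinery for collagen, had 2.28 FPKM in No-SCI against 6.18 after SCI, 2.71-fold. MIA2, which helps load large cargo, had 6.27 and 15.6 FPKM, 2.49-fold. BMP1, the procollagen C-proteinase itself, had 3.92 and 7.90 FPKM, 2.01-fold, and was the only one of 8 processing proteases on the list with an entry.

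Of 9 genes for proteins that sit on or beside fibrils, 4 were at least 2-fold higher. DCN (decorin), which binds fibrils and regulates their width, had 15.1 FPKM in No-SCI against 156 after SCI, 10.4-fold. LUM (lumican) had 7.02 and 23.8 FPKM, 3.38-fold, ELN (elastin), a substrate of the lysyl oxidases, was 2.93-fold higher at 4.39 FPKM after SCI, and FBN1 (fibrillin) had 3.48 and 9.47 FPKM, 2.72-fold. SPARC, a collagen binding glycoprotein, was at 271 and 267 FPKM, the most abundant gene of that group in both conditions. In contrast, none of the 4 basement membrane partners listed reached 2-fold, with log2 ratios from −0.49 for LAMA4 to 0.28 for LAMC1. The type IV chains also stayed under 2-fold, though at values near the lowest of the table.

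The collagen receptors went in different directions. DDR2, a receptor tyrosine kinase for fibrillar collagen typical of fibroblasts, had 8.83 FPKM in No-SCI against 28.4 after SCI, 3.21-fold. DDR1, its relative of epithelial and myelinating cells, had 127 and 62.0 FPKM, 2.04-fold lower. ADGRG1 (GPR56), a receptor for type III collagen, had 43.1 and 14.8 FPKM, 2.91-fold lower. COL3A1 itself was higher after SCI.

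Among genes of breakdown and its control, CTSK (cathepsin K), a collagen degrading protease, had 2.16 FPKM in No-SCI against 11.1 after SCI, 5.11-fold. TIMP1, an inhibitor of matrix metalloproteinases, had 208 and 780 FPKM, 3.75-fold, and TIMP3 had 15.9 and 34.7 FPKM, 2.18-fold. MMP2 and MMP14, the metalloproteinases listed, had log2 ratios of 0.50 and −0.23. Among inducers of collagen synthesis, CCN2 (CTGF) had 2.34 and 23.0 FPKM, 9.85-fold, and PDGFA 72.3 and 159 FPKM, 2.20-fold. TGFB1 had 2.15 and 3.56 FPKM, a log2 ratio of 0.73. TGFB3, the most abundant inducer listed, had 180 and 188 FPKM, a log2 ratio of 0.06. TGFB2 was lower, at 12.1 and 9.94 FPKM, a log2 ratio of −0.28. Of the 5 inducers listed 2 were thus at least 2-fold higher, beside 7.96% of all entries.

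**Figure D3:**
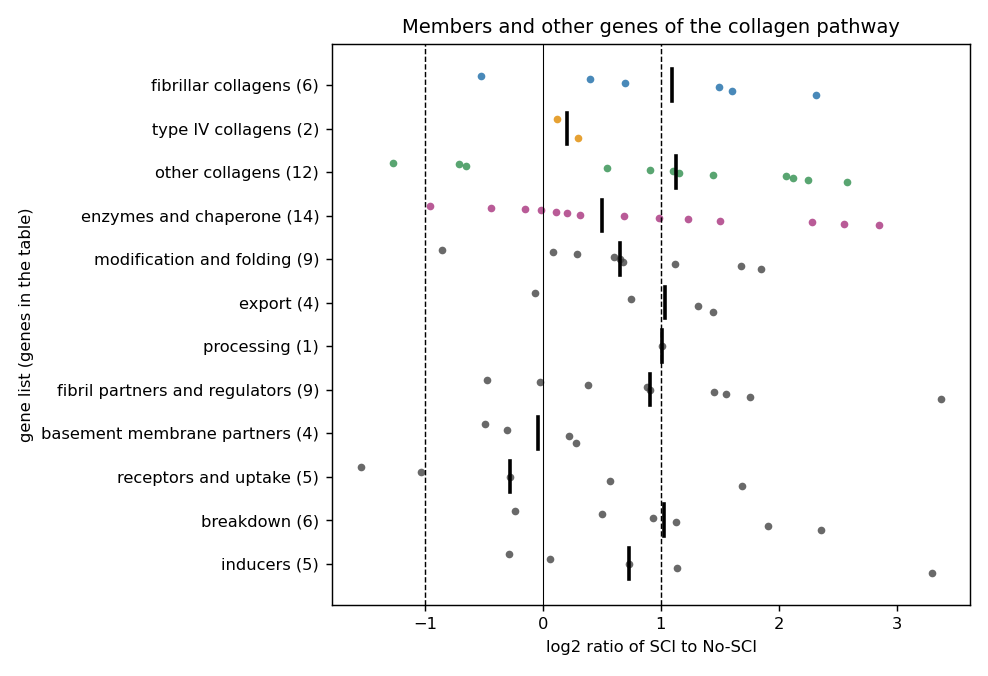
Log2 ratio of SCI to No-SCI for the 4 classes of members (colored) and 8 groups of other collagen pathway genes (gray), 1 point per gene, with the median of each list as a bar and dashed lines at a 2-fold difference. The medians of the type IV collagens, the basement membrane partners and the receptors lie at 0.21, −0.04 and −0.28, and those of the fibrillar and other collagens at 1.09 and 1.13.

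Among cell types that make collagen, fibroblast markers were mostly higher after SCI, whereas mural and endothelial lists had small median log2 ratios. The part of these cell types in the results was not tested. A list of meningeal and perivascular fibroblast genes without any collagen had 18 of its 20 genes in the table. It shares DCN and LUM with the pathway list. Of the 18 genes 16 were at least 2-fold higher after SCI and none was lower, beside 7.96% of all entries at least 2-fold higher. The list was chosen with earlier results of these data known, so its count and its summed level are not independent support. Its summed level was 183 FPKM in No-SCI against 1474 after SCI, 8.05-fold, and its median log2 ratio was 2.47. Its most abundant genes after SCI were CRABP2 with 17.3 and 382 FPKM, PTGDS with 16.2 and 224 FPKM and DCN, and its defining markers DCN, LUM and PDGFRA were listed above 1 in both groups. PDGFRA, with 13.0 and 21.1 FPKM, had a log2 ratio of 0.70. The summed level of this list differed more between the groups than that of the collagen chains, 1.89-fold. The choice of the list limits this comparison too. In such a bulk sample, from which cells had been pelleted, RNA from more cells of a type and more RNA per cell cannot be told apart.

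Mural and endothelial lists had small median log2 ratios. Of 11 mural genes in the table none was at least 2-fold higher and 1 was at least 2-fold lower, with a median log2 ratio of 0.19 and summed levels of 464 and 592 FPKM. Differences of any size were upward in 8 of the 11. PDGFRB had 1.70 FPKM in No-SCI against 2.95 after SCI, and RGS5 14.0 against 8.95. Of 10 endothelial genes 2 were at least 2-fold higher and 1 at least 2-fold lower, with a median of 0.12 and summed levels of 68.4 and 88.9 FPKM. Among all entries 7.96% were at least 2-fold higher and 12.1% at least 2-fold lower, with a median of −0.12. CDH5 was 3.05-fold and EGFL7 2.15-fold higher, CLDN5 had 16.2 and 13.7 FPKM, and PECAM1 had no entry. The type IV collagens, at values near the lowest of the table, had a median of 0.21, and their basement membrane partners −0.04.

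Other lists covered tissue that could be cut with the cord. PRX, a protein of Schwann cell myelin, had 1.96 FPKM in No-SCI against 7.55 after SCI. Of the 8 Schwann cell genes listed 3 were at least 2-fold higher and 1 at least 2-fold lower. This list summed to 171 and 218 FPKM. Among all entries 7.96% were at least 2-fold higher and 12.1% at least 2-fold lower. Skeletal muscle genes were lower, 8 of 10 of them by at least 2-fold, and summed to 415 FPKM in No-SCI against 46.5 after SCI. MYH1 and MYH2, both among the 8, have the same values, 2.71 and 1.18 FPKM, and may not be separate measurements. ACTA1 had 60.8 and 4.48 FPKM and CKM 31.6 and 3.07 FPKM. The bone and cartilage list had 5 of 12 genes in the table, summing to 18.5 and 27.9 FPKM. ACAN had no entry, and BGLAP was at 2.76 FPKM in No-SCI and is listed at 1 after SCI.

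Macrophage genes were higher in 8 of 9 cases, 5 of them at least 2-fold, summing to 1146 and 1681 FPKM. The labeled tissue was checked with oligodendrocyte and neuron lists, which were present in both groups. They summed to 88423 and 48288 FPKM (oligodendrocyte) and to 2220 and 1931 FPKM (neuron). MOBP and BCAS1, at 44200.3 and 36068.5 FPKM in No-SCI, held most of the oligodendrocyte sum. All 10 oligodendrocyte genes listed were lower after SCI, 7 of them at least 2-fold. Of 8 neuron genes 6 were lower, 3 of them at least 2-fold. Over all entries 7.96% were at least 2-fold higher and 12.1% at least 2-fold lower. MAG, a myelin glycoprotein, was at 272 FPKM in No-SCI against 87.4 after SCI. The parts of the Schwann cell, muscle, bone and macrophage signals in the collagen values were not tested.

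**Figure D4:**
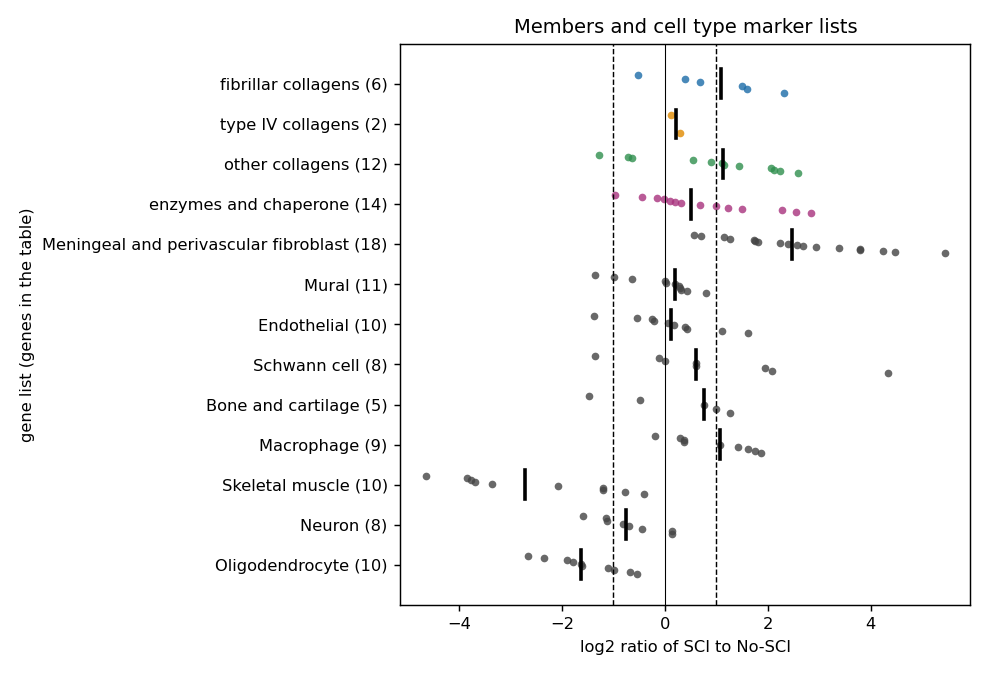
Log2 ratio of SCI to No-SCI for the 4 classes of members (colored) and 9 cell type marker lists without collagens (gray), 1 point per gene, with the median of each list as a bar and dashed lines at a 2-fold difference. The fibroblast list has the highest median, 2.47, the mural and endothelial medians lie at 0.19 and 0.12, and the muscle list has the lowest, −2.73.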

How the data were processed

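Total RNA of the supernatant of digested rat spinal cord was sequenced. According to the methods and the submitters' processing notes, the authors downsampled reads, aligned them to rn6 with STAR 2.5.4b and used Cuffdiff (cufflinks 1.3.0) and upper quartile normalization. The authors deposited 1 FPKM value per gene and condition. The table also holds the authors' own p-values, q-values and fold changes, which were not used. Each value column was assigned by the condition written in its rows, which left 0 value columns unassigned. A depth of 50 M reads per sample is stated, and the depth after downsampling is not given in the sources used here.

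Log2 ratios (SCI over No-SCI) were taken over all 12771 entries with no pseudocount, and the calculation was tested on simulated data. For the 13 symbols listed 2 times, none a member, the entry of higher mean was taken. A fold of 2 was counted in place of the authors' threshold, which needs their q-values. A percentage of entries past that fold is given as background.

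The members and lists were chosen with earlier results of these data known. Every member and every gene of the pathway list could be named, and of a marker list its defining and most abundant genes, some of which are not reported here. All 34 member symbols matched a gene symbol of the GRCr8 reference, which was used for names and promoter windows alone. Alternatives were pseudocounts of 1 and 0.1, subtraction of 1, scaling by the median ratio, the upper quartile or the total, a mean of at least 5 FPKM, folds of 1.3, 1.5 and 4, means for medians, and other class borders. Python 3.11.15 with numpy 2.4.6, pandas 2.3.3 and matplotlib 3.10.9 was used.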

Additional observations from a re-analysis of the deposited data

How the results depend on the processing

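A result counted as moved where it changed by over 1.5 times, or by 0.585 on the log2 scale. The 15 members at least 2-fold higher became 9 with a mean of at least 5 FPKM and 8 at a fold of 4. Under the other alternatives their number ranged from 13 to 21. Of the 9, only LOX and LOXL2 reached 5 FPKM in No-SCI. COL3A1, COL6A2, COL6A3, COL8A1, LOXL1, PCOLCE and PCOLCE2 passed the mean filter through their SCI values alone, so the filter depends in part on the difference itself. The 1 member at least 2-fold lower became 0 with a pseudocount of 1, with the mean filter and at a fold of 4, and 3, 4 and 6 with 1 subtracted and at folds of 1.5 and 1.3. Subtracting 1 moved the median log2 ratio of the fibrillar collagens to 1.90 and that of the other collagens to 1.78, and the mean filter moved that of the enzymes to 1.11, where LOXL1, PCOLCE and PCOLCE2 pass through their SCI values alone. The filter leaves fewer genes, and no type IV chain. Of the 34 member ratios 12 moved with 1 subtracted, each away from 0, and none of the 34 moved under the pseudocounts and scalings. Median centering shifts every log2 ratio by 0.12. With 1 library labeled SCI and no value per library, no replicate could be left out. No paired analysis was possible because the table has 1 value per condition. The ratio of COL4A1 to COL4A2 was not run, since COL4A2 has no entry, and no member symbol is listed more than once, so summing such entries was not run. Depth limits cannot be stated without counts.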
